A study of Homo sapiens with 10 samples.

Results

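Transcript levels of 42 genes of DNA replication and S phase were followed through 10 RNA sequencing libraries of PC9, PC9M and H358, cell lines of human lung adenocarcinoma. The genes were taken by symbol, and all 42 were found among the 23234 genes present in every table the authors deposited. The study asked what inactivation of the kinases ABL1 and ABL2 does to gene expression in these cells. ABL1 and ABL2 are cytoplasmic tyrosine kinases that act on the cytoskeleton and on growth signalling, and GNF5 is an inhibitor that binds them away from the ATP site. Cultures of PC9, PC9M and H358 received GNF5 for 72 h, and their controls were DMSO cultures of the same line. Cultures of PC9 and PC9M were transduced with shRNAs against both ABL1 and ABL2, and their controls were transduced with a scrambled shRNA, both in polybrene at 8 µg/mL. By the labels, PC9 and H358 received GNF5 at 10 mM and PC9M at 20 mM, and whether mM is the true unit was not verifiable here. PC9M is labelled as spreading more to bone and brain than PC9, and its name makes it likely that the lines are related. Each of the 10 groups held 1 library, so no value within a pair carries a replicate error and no test within a pair is possible.

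The values are FPKM, fragments of sequenced RNA scaled by transcript length and by library, which allow levels of different genes to be compared per length. They were taken to be scaled within each of the 5 pairs, although a further condition may have been processed with the H358 pair. The read depth of the libraries is unknown. Between 11268 and 12773 genes reached 1 FPKM per library. The 6 epithelial markers looked for, EPCAM and keratins among them, were above 1 FPKM in all 10 libraries. Of 3 lung markers, 2 reached 1 FPKM in both H358 libraries and in the GNF5 and DMSO libraries of PC9, and 0 in the other 6 libraries. NKX2-1, a factor of the lung lineage, was at 46.3 FPKM with GNF5 and 92.1 FPKM with DMSO in H358 and at 0.0206 FPKM or less in PC9 and PC9M. SFTPB, a surfactant protein, was at 3.95 FPKM with GNF5 and 15.2 FPKM with DMSO in PC9 and at 0.197 FPKM or less in the other 8 libraries. Of 5 leukocyte markers, PTPRC stayed at 0.104 FPKM or less, LYZ was above 1 FPKM in the 4 PC9M libraries, and CD14 was at 1.18 FPKM with GNF5 and 2.66 FPKM with DMSO in PC9. Of 4 endothelial markers, PECAM1 was at 11.3 FPKM with GNF5 and 23.2 FPKM with DMSO in PC9, and at 0.103 FPKM or less in PC9M and H358. CDH5 was between 2.26 FPKM and 10.4 FPKM in the PC9 and PC9M libraries. KDR was at 4.67 FPKM with GNF5 and 3.27 FPKM with DMSO in H358. Fibroblast markers reaching 1 FPKM numbered 1 of 5 in PC9 and PC9M libraries and 2 of 5 in those of H358. With the shRNAs, ABL1 was at 3.97 FPKM against 24.9 FPKM with the scrambled shRNA in PC9, and at 3.56 FPKM with the shRNAs against 10.5 FPKM with the scrambled shRNA in PC9M. ABL2 was at 1.87 FPKM with the shRNAs against 7.88 FPKM with the scrambled shRNA in PC9, and at 3.03 FPKM with the shRNAs against 5.22 FPKM with the scrambled shRNA in PC9M. The authors' deposited table marks ABL1 as significant in both lines and ABL2 in PC9. It does not mark ABL2 in PC9M, where the authors' q-value of ABL2 was 0.503. GNF5 blocks the kinases and not their transcripts, so ABL1 levels do not check its action.

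Before S phase, origins are licensed when the origin recognition complex, CDC6 and CDT1 load the MCM2 to MCM7 helicase onto DNA. Cyclin E with its kinase and the E2F transcription factors then drive entry into S phase, the GINS complex joins the helicase, and primase, the polymerases, the PCNA clamp and its RFC loader copy the strands. Most of these genes are transcribed late in G1 and in S phase, and their levels are widely used as a readout of how many cells in a culture are cycling. In bulk RNA, fewer cells in S phase and less of these transcripts per cell cannot be told apart.

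E2F factors bind short sites in the promoters of many of these genes. RefSeq promoter windows of 300 bases on GRCh38.p14, reaching from 250 bases before to 50 bases after a transcript start, were matched by symbol for 37 of the 42 genes, which have 47 windows. Letter strings of the E2F type were searched on both strands, namely TTTCCCGC, TTTGGCGC, TTTCGCGC and TTTGCCGC. At least 1 of them occurred in 22 of the 47 windows, or 46.8%, against 4% of the 19784 windows of all genes in the tables. Stretches of 120 bases are shown for the genes with a matching window that were lowest with GNF5 in the mean of PC9M and H358, and for the genes with a window that were highest, CDT1 and RFC4. Each runs 5′ to 3′ along its gene, with E2F strings in capitals.
GINS2, chr16:85688955-85689074, minus strand: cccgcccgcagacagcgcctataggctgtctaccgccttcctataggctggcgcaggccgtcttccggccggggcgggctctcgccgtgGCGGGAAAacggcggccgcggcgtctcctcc
UHRF1, chr19:4909381-4909500, plus strand: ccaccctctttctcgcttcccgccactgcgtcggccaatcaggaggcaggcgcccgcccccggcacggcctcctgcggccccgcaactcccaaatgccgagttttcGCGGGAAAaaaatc
MCM3, chr6:52284869-52284988, minus strand: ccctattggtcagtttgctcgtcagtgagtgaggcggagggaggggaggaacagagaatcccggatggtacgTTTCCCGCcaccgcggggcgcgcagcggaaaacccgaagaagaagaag
E2F1, chr20:33686386-33686505, minus strand: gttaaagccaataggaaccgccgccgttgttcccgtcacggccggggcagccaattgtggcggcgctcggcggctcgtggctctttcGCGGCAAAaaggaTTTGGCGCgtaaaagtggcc
CDT1, chr16:88803669-88803788, plus strand: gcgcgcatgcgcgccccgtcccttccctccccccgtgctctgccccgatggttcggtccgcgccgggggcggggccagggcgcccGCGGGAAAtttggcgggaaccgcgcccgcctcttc
RFC4, chr3:186806483-186806602, minus strand: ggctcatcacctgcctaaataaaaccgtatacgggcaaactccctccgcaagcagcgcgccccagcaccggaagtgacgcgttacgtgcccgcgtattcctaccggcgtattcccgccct
In E2F1 a pair of strings stand within the last bases before the transcript start, at 33 and 20 bases upstream, and the GINS2, UHRF1 and CDT1 strings begin 31, 14 and 35 bases upstream. The MCM3 string shown begins 174 bases upstream, and the RFC4 stretch holds none. The MCM3 window holds 2 such strings, of which the other does not lie wholly before the transcript start. Another window of UHRF1 also holds 1. CDT1 thus carries such a string although its level differed little with GNF5 in PC9M. A match says only that these letters are there. The CCAAT box, letters CCAAT, was in 51.1% of the windows of these genes and in 34.6% of those of all genes, and the cell cycle homology region, letters TTTGAA, was in 2.13% against 12.4%. These windows were richer in G and C, at a median of 67.7% against 62.3%, and the part of base composition in the counts was not tested.

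Levels differed widely between genes, lines and cultures. MCM7 was the highest of the 42 genes in the 4 PC9 libraries and PCNA the highest in the 6 libraries of PC9M and H358. The lowest gene of the GNF5 pair of PC9 was FAM111B, at 0.0716 FPKM with GNF5 and 0.0684 FPKM with DMSO, followed by CCNE2, at 0.195 FPKM with GNF5 and 0.122 FPKM with DMSO. The lowest in every PC9M and H358 library was E2F2, at 0.257 FPKM with GNF5 and 0.981 FPKM with DMSO in H358. The median over the 42 genes was 5.29 FPKM with GNF5 and 5.29 FPKM with DMSO in PC9, 8.27 FPKM with GNF5 and 19.7 FPKM with DMSO in PC9M, and 4.41 FPKM with GNF5 and 9.83 FPKM with DMSO in H358. With the ABL1/ABL2 shRNAs it was 26.5 FPKM, against 33.8 FPKM with the scrambled shRNA, in PC9, and 25.6 FPKM with the shRNAs and 23.1 FPKM with the scrambled shRNA in PC9M. Levels are thus lowest in the GNF5 pair of PC9 and in H358 with GNF5, and highest in the shRNA pair of PC9, although these medians come from tables scaled separately.

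**Figure D1:**
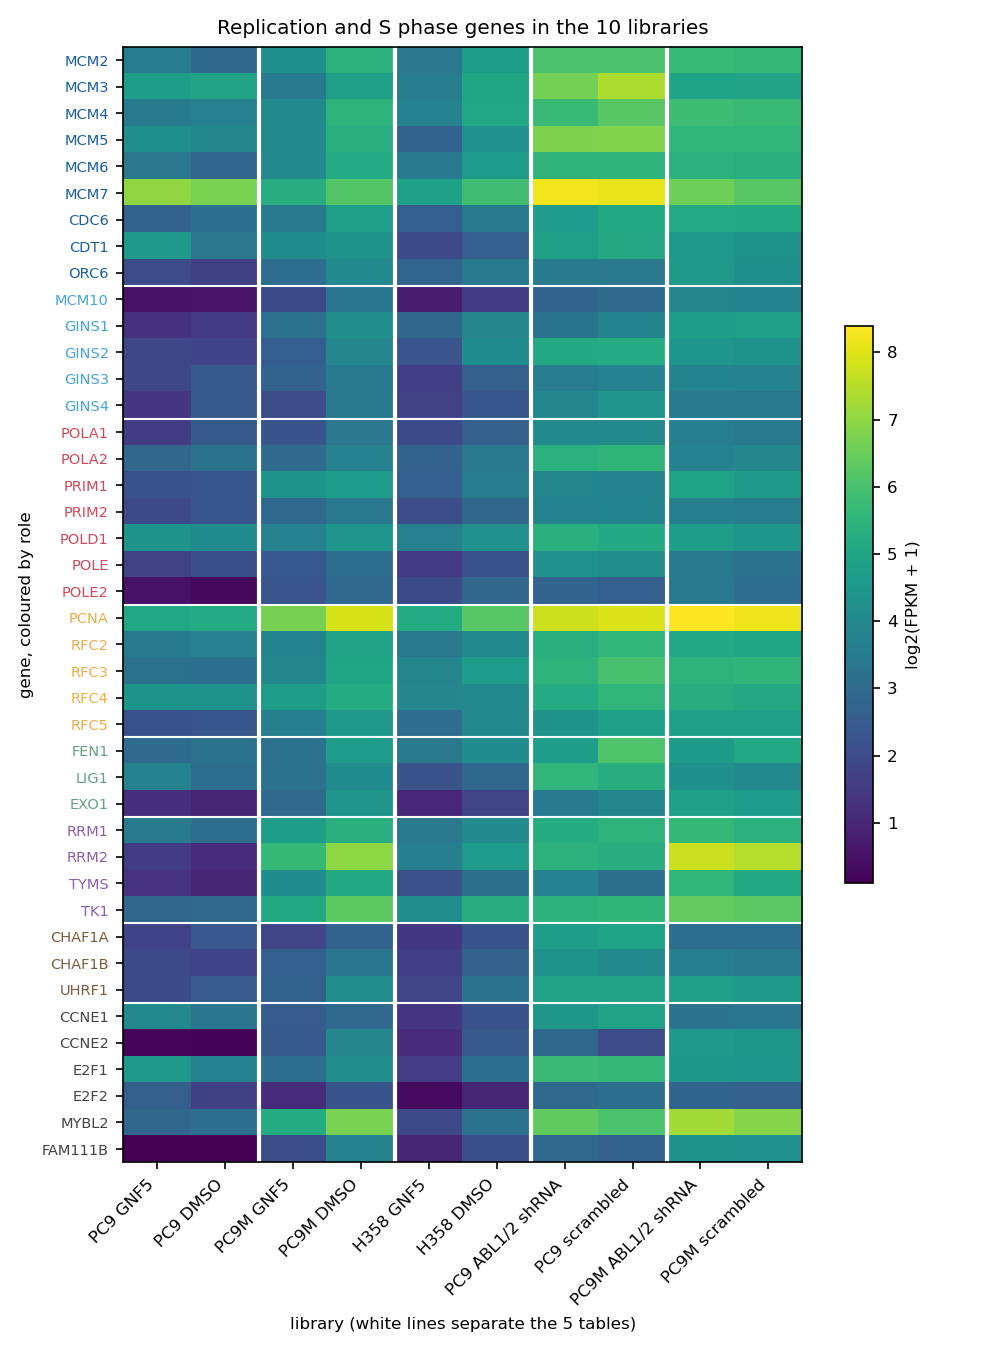
Level of each of the 42 genes (rows, grouped and coloured by role) in each of the 10 libraries (columns), as log2(FPKM + 1), with the treated or shRNA library left of its control in each of the 5 pairs. The PC9M and H358 columns with GNF5 are darker than their DMSO columns in every role, while the PC9 GNF5 pair is dark in both columns, with a median of 5.29 FPKM in each.

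Ratios were taken within pairs, as log2 of FPKM + 1 in the GNF5 or shRNA library over FPKM + 1 in its control, for genes with at least 1 FPKM in either library. Adding 1 understates the difference of low genes. With GNF5 in PC9M all 42 genes were counted and all 42 were lower, where 57.7% of the 12370 genes counted in that pair were lower. At least 2-fold lower were 24 of the 42, against 1.81% of all genes, and 0 of the 42 were 2-fold higher, against 1.58%. In H358 all 41 genes counted were lower with GNF5, where 74.5% of 12951 genes were, and 15 of the 41 were at least 2-fold lower, against 2.4% of all genes, with 0 of the 41 being 2-fold higher, against 1.12%. In PC9, 19 of 38 genes counted were lower with GNF5 and 19 higher, with 57% of all genes lower and 43% higher. None of the 38 was 2-fold lower in PC9, where 6.83% of all genes were, and 1 was 2-fold higher, CDT1, where 5.17% were.

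The median log2 ratio of the genes was -1.05 in PC9M, -0.93 in H358 and -0.02 in PC9 with GNF5, beside medians over all genes of -0.06, -0.19 and -0.10. Set against the median of all genes, H358 had a median of -0.73, with 10 genes 2-fold lower and RFC4 the only one of the 41 not below 0. With the shRNAs, 25 of 42 genes were lower in PC9, where 62.3% of all genes were, and the median was -0.06. Of those, 1 was 2-fold lower, FEN1, against 1.92% of all genes, and 0 were 2-fold higher, against 1.21%. In PC9M 34 of 42 were higher with the shRNAs, where 48.1% of all genes were, at a median of 0.11 and with none past 2-fold in either direction, where 0.808% of all genes were 2-fold lower and 1.01% 2-fold higher.

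**Figure D2:**
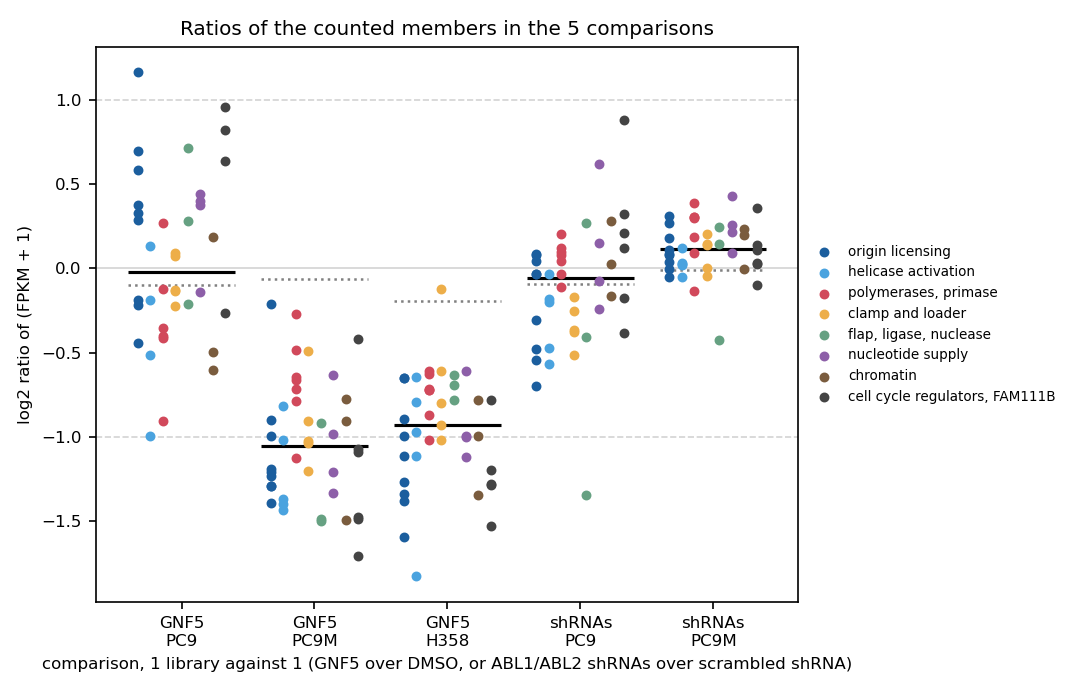
Log2 ratio of FPKM + 1 for each counted gene (points, coloured by role) in the 5 comparisons, with the median of these genes as a black bar, the median of all counted genes as a dotted grey bar and 2-fold as dashed lines. All points lie below 0 for GNF5 in PC9M and H358, whereas they spread on both sides of 0 for GNF5 in PC9, from -0.99 to 1.16.

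A gene had to reach 1 FPKM to be counted. In the GNF5 pair of PC9 this left out FAM111B, CCNE2, POLE2 and MCM10, of which MCM10 came nearest at 0.452 FPKM, while EXO1 was just inside at 1.35 FPKM. In H358 it left out E2F2, whose higher library had 0.981 FPKM, and MCM10 was just inside at 1.95 FPKM. No gene was left out of the other 3 comparisons. For 7 genes the deposited locus also covers other genes, so that their values may hold other transcripts. These are MCM7, with TAF6, CNPY4, AP4M1 and several microRNAs, RFC4 with EIF4A2, TYMS with ENOSF1 and others, CCNE2 with INTS8, PCNA with its antisense gene, POLA1 with a small RNA gene and UHRF1 with a microRNA gene. Whether the authors counted by strand is not given in the sources used here.

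The licensing genes, 9 in number, were all lower with GNF5 in PC9M and H358. Their median log2 ratio was -1.21 in PC9M, with 6 of 9 at least 2-fold lower, and -1.11 in H358, with 5 of 9. The MCM2 to MCM6 subunits of the helicase ring accounted for all 5 in H358 and for 5 of the 6 in PC9M, where CDC6 was the other. MCM5 had 15.6 FPKM with GNF5, against 39.6 FPKM with DMSO, in PC9M, and 5.54 FPKM with GNF5 and 18.7 FPKM with DMSO in H358. MCM3 had 10.7 FPKM with GNF5 and 27.7 FPKM with DMSO in PC9M and 11.0 FPKM with GNF5 and 30.3 FPKM with DMSO in H358. The log2 ratios in PC9M and H358 were -1.29 and -1.59 for MCM5 and -1.29 and -1.38 for MCM3.

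MCM4 had 15.7 FPKM with GNF5 and 42.7 FPKM with DMSO in PC9M, and 12.6 FPKM with GNF5 and 31.8 FPKM with DMSO in H358, log2 ratios of -1.39 and -1.27. MCM2 had 17.8 FPKM with GNF5 and 42.3 FPKM with DMSO in PC9M and 9.51 FPKM with GNF5 and 25.5 FPKM with DMSO in H358, ratios of -1.21 and -1.34. MCM6 had 15 FPKM with GNF5 and 35.4 FPKM with DMSO in PC9M and 10.5 FPKM with GNF5 and 23.9 FPKM with DMSO in H358, ratios of -1.19 and -1.11. Over MCM2 to MCM6 the ratios thus lay between -1.59 and -1.11 in both lines. MCM7, the subunit whose locus holds other genes, was less than 2-fold lower in both lines in the ratio of FPKM + 1. It had 37.7 FPKM with GNF5 and 71.0 FPKM with DMSO in PC9M, and 27.7 FPKM with GNF5 and 56.1 FPKM with DMSO in H358. Its log2 ratios were -0.90 and -0.99.

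CDC6, the ATPase that helps to load the ring, had 10.6 FPKM with GNF5 and 26.3 FPKM with DMSO in PC9M and 5.0 FPKM with GNF5 and 10.2 FPKM with DMSO in H358. ORC6, a subunit of the origin recognition complex, had 7.46 FPKM with GNF5 and 15.9 FPKM with DMSO in PC9M and 5.95 FPKM with GNF5 and 9.91 FPKM with DMSO in H358. CDT1, which brings the ring to origins and whose protein is destroyed in S phase, was an exception in PC9M. At chr16:87397687-87403167 (hg18), it had 16.4 FPKM with GNF5 and 19.2 FPKM with DMSO there, a log2 ratio of -0.21 that was nearest to 0 among the 42 genes. In H358 CDT1 had 2.83 FPKM with GNF5 and 5.01 FPKM with DMSO, a ratio of -0.65.

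In PC9 the licensing genes did not go one way with GNF5. CDT1 had 22.4 FPKM with GNF5 and 9.46 FPKM with DMSO, a log2 ratio of 1.16, and the authors' deposited table gives it a q-value of 0.819. MCM2 had 11.2 FPKM with GNF5 and 6.53 FPKM with DMSO and MCM6 had 9.54 FPKM with GNF5 and 6.04 FPKM with DMSO, ratios of 0.70 and 0.58. Lower were MCM3, at 25.4 FPKM with GNF5 and 29.7 FPKM with DMSO, MCM4, at 10.5 FPKM with GNF5 and 12.1 FPKM with DMSO, and CDC6, at 5.48 FPKM with GNF5 and 7.82 FPKM with DMSO. The median of the 9 genes in PC9 was 0.33.

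The genes that turn the loaded ring into an active helicase were also all lower with GNF5 in PC9M and H358. GINS2, a subunit of the GINS complex that joins the ring, lies at chr16:84268781-84280089 on hg18, the build of the files. It had 3.91 FPKM with GNF5 and 16.4 FPKM with DMSO in H358. That log2 ratio of -1.83 was the lowest of any of the 42 genes in any comparison. In PC9M GINS2 had 4.91 FPKM with GNF5 and 14.2 FPKM with DMSO, a ratio of -1.37, and in PC9 it had 2.71 FPKM with GNF5 and 2.39 FPKM with DMSO, a ratio of 0.13. GINS4, another subunit, had the lower ratio in PC9M instead, with 3.14 FPKM with GNF5 and 10.2 FPKM with DMSO in PC9M, a ratio of -1.43, but 2.22 FPKM with GNF5 and 4.03 FPKM with DMSO in H358, a ratio of -0.65.

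GINS1 had 8.08 FPKM with GNF5 and 17.4 FPKM with DMSO in PC9M and 6.07 FPKM with GNF5 and 14.3 FPKM with DMSO in H358, ratios of -1.02 and -1.11. GINS3 had 5.57 FPKM with GNF5 and 10.6 FPKM with DMSO in PC9M and 2.12 FPKM with GNF5 and 5.11 FPKM with DMSO in H358, ratios of -0.82 and -0.97. MCM10, which binds the helicase and is needed for its activation, had 2.90 FPKM with GNF5 and 9.29 FPKM with DMSO in PC9M and 0.706 FPKM with GNF5 and 1.95 FPKM with DMSO in H358. In PC9 with GNF5, GINS4 had 1.67 FPKM, against 4.32 FPKM with DMSO, and its ratio of -0.99 was the lowest there. GINS3 and GINS1 in PC9 had ratios of -0.51 and -0.18.

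In PC9M the polymerase and primase genes stood nearest to their DMSO library among the roles of these genes. Their median log2 ratio with GNF5 was -0.66 in PC9M and -0.72 in H358. In H358 the median of FEN1, LIG1 and EXO1 was nearer to 0, at -0.69. With 1 added to FPKM, 1 of 7 passed 2-fold in each line, a different gene in each. POLA1, the catalytic subunit of polymerase alpha, had 3.77 FPKM with GNF5 and 9.40 FPKM with DMSO in PC9M, a ratio of -1.12, and 2.91 FPKM with GNF5 and 5.03 FPKM with DMSO in H358, a ratio of -0.63. PRIM1, the catalytic subunit of primase, had 19.9 FPKM with GNF5 and 24.2 FPKM with DMSO in PC9M, a ratio of -0.27, and 4.90 FPKM with GNF5 and 11.0 FPKM with DMSO in H358, a ratio of -1.02. In PC9 POLA1 had 1.90 FPKM with GNF5 and 4.44 FPKM with DMSO, a ratio of -0.91, so it was lower with GNF5 in all 3 lines.

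POLD1, the catalytic subunit of the lagging strand polymerase delta, had 12.4 FPKM with GNF5 and 20.3 FPKM with DMSO in PC9M and 12.0 FPKM with GNF5 and 18.8 FPKM with DMSO in H358. In PC9 it had 20.1 FPKM with GNF5 and 16.5 FPKM with DMSO, a ratio of 0.27, the only one of the 6 polymerase and primase genes counted there that was higher. POLE, the catalytic subunit of the leading strand polymerase epsilon, had 4.22 FPKM with GNF5 and 7.56 FPKM with DMSO in PC9M, 1.84 FPKM with GNF5 and 3.68 FPKM with DMSO in H358 and 2.26 FPKM with GNF5 and 3.34 FPKM with DMSO in PC9. Its partner POLE2 had ratios of -0.64 in PC9M and -0.87 in H358. POLA2, the regulatory subunit of polymerase alpha, and PRIM2, the large subunit of primase, ranged from -0.79 to -0.36 over the 3 lines.

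PCNA, the sliding clamp that holds polymerases on DNA, was 103 FPKM with GNF5 and 239 FPKM with DMSO in PC9M, and 36.2 FPKM with GNF5 and 74.3 FPKM with DMSO in H358. Its log2 ratios were -1.20 and -1.02, whereas in PC9, at 32.3 FPKM with GNF5 and 35.5 FPKM with DMSO, it was -0.13. Among subunits of the RFC complex, which loads the clamp, RFC2 had 13.3 FPKM with GNF5 and 28.4 FPKM with DMSO in PC9M and 9.76 FPKM with GNF5 and 15.4 FPKM with DMSO in H358. RFC3 had 14.3 FPKM with GNF5 and 30.1 FPKM with DMSO in PC9M and 13.8 FPKM with GNF5 and 24.8 FPKM with DMSO in H358, and RFC5 had 11.6 FPKM with GNF5 and 22.5 FPKM with DMSO in PC9M and 7.36 FPKM with GNF5 and 14.9 FPKM with DMSO in H358. RFC4, whose locus on hg18, chr3:187984055-188007178, covers EIF4A2, had 25.7 FPKM with GNF5 and 36.5 FPKM with DMSO in PC9M, a ratio of -0.49, and 14.3 FPKM with GNF5 and 15.6 FPKM with DMSO in H358, where -0.12 was the ratio nearest to 0. All 5 clamp and loader genes in PC9 lay between -0.22 and 0.09 with GNF5.

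FEN1, the nuclease that trims the flaps of Okazaki fragments (hg18 chr11:61316685-61321290), had 8.19 FPKM with GNF5 and 25 FPKM with DMSO in PC9M, a log2 ratio of -1.50. In H358 it had 9.78 FPKM with GNF5 and 16.4 FPKM with DMSO, a ratio of -0.69, and in PC9 7.05 FPKM with GNF5 and 8.33 FPKM with DMSO, a ratio of -0.21. EXO1, an exonuclease of mismatch repair and end resection, had 6.73 FPKM with GNF5 and 20.7 FPKM with DMSO in PC9M and 1.08 FPKM with GNF5 and 2.58 FPKM with DMSO in H358, ratios of -1.49 and -0.78. LIG1, the ligase that seals the fragments, had 8.35 FPKM with GNF5 and 16.6 FPKM with DMSO in PC9M and 3.69 FPKM with GNF5 and 6.27 FPKM with DMSO in H358, ratios of -0.92 and -0.63. In PC9 LIG1 went the other way, with 13.1 FPKM with GNF5 and 7.58 FPKM with DMSO, a ratio of 0.71.

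Genes that supply deoxynucleotides had medians of -1.10 in PC9M and -1.0 in H358 with GNF5. RRM2, the S phase subunit of ribonucleotide reductase, had 49.8 FPKM with GNF5 and 127 FPKM with DMSO in PC9M, and 11.8 FPKM with GNF5 and 24.6 FPKM with DMSO in H358. RRM1, its large subunit, had 25.5 FPKM with GNF5 and 40.2 FPKM with DMSO in PC9M and 9.80 FPKM with GNF5 and 15.5 FPKM with DMSO in H358, and its ratios of -0.63 and -0.61 were weaker than those of RRM2, -1.33 and -1.0. TK1, the thymidine kinase of the salvage route, had 34.2 FPKM with GNF5 and 80.4 FPKM with DMSO in PC9M and 16.8 FPKM with GNF5 and 37.6 FPKM with DMSO in H358. TYMS, which makes thymidylate, had 16.7 FPKM with GNF5 and 33.9 FPKM with DMSO in PC9M and 3.47 FPKM with GNF5 and 7.94 FPKM with DMSO in H358. In PC9 RRM1, RRM2 and TYMS were between 0.38 and 0.44 and TK1 was at -0.14.

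CHAF1A and CHAF1B are subunits of the factor that deposits histones on new DNA. CHAF1A had 2.56 FPKM with GNF5 and 5.66 FPKM with DMSO in PC9M and 1.75 FPKM with GNF5 and 3.73 FPKM with DMSO in H358. CHAF1B had 4.95 FPKM with GNF5 and 9.18 FPKM with DMSO in PC9M and 2.10 FPKM with GNF5 and 5.19 FPKM with DMSO in H358. UHRF1, which brings maintenance methylation to the fork, had 5.34 FPKM with GNF5 and 16.9 FPKM with DMSO in PC9M and 2.59 FPKM with GNF5 and 8.09 FPKM with DMSO in H358, ratios of -1.49 and -1.34. In PC9 UHRF1 had 2.93 FPKM with GNF5 and 4.54 FPKM with DMSO and CHAF1A had 2.36 FPKM with GNF5 and 4.10 FPKM with DMSO, so both were lower with GNF5 in all 3 lines. CHAF1B was at 2.87 FPKM with GNF5 and 2.39 FPKM with DMSO there, a ratio of 0.19.

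Among the regulators, E2F1, which activates S phase genes, had 7.56 FPKM with GNF5 and 17.0 FPKM with DMSO in PC9M, and 2.02 FPKM with GNF5 and 7.69 FPKM with DMSO in H358. In PC9 it had 23.2 FPKM with GNF5 and 12.7 FPKM with DMSO, so its ratios were -1.07, -1.53 and 0.82. E2F1 was thus lower with GNF5 in PC9M and H358 and higher in PC9. E2F2, a close relative, had 1.24 FPKM with GNF5 and 3.76 FPKM with DMSO in PC9M and 5.11 FPKM with GNF5 and 2.14 FPKM with DMSO in PC9, ratios of -1.09 and 0.96. Of the cyclins E, CCNE2 had 4.45 FPKM with GNF5 and 14.2 FPKM with DMSO in PC9M and 1.23 FPKM with GNF5 and 4.44 FPKM with DMSO in H358, ratios of -1.48 and -1.29. CCNE1 had 4.71 FPKM with GNF5 and 6.65 FPKM with DMSO in PC9M and 1.64 FPKM with GNF5 and 3.54 FPKM with DMSO in H358, ratios of -0.42 and -0.78, and 15 FPKM with GNF5 and 9.30 FPKM with DMSO in PC9, a ratio of 0.64. Both lines thus had a CCNE2 ratio further below 0 than that of CCNE1.

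MYBL2, a transcription factor that acts on late cell cycle genes, had 37.1 FPKM with GNF5 and 106 FPKM with DMSO in PC9M, and 2.79 FPKM with GNF5 and 8.22 FPKM with DMSO in H358. FAM111B (hg18 chr11:58631234-58651464) had 3.25 FPKM with GNF5 and 12.9 FPKM with DMSO in PC9M, a ratio of -1.71 that was the lowest of the 42 genes there, and 0.925 FPKM with GNF5 and 3.40 FPKM with DMSO in H358, a ratio of -1.19. In PC9 MYBL2 had 6.15 FPKM with GNF5 and 7.58 FPKM with DMSO, a ratio of -0.26.

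Set side by side, 14 of the 41 genes counted in both PC9M and H358 were at least 2-fold lower with GNF5 in both lines. They were MCM2 to MCM6, GINS1, GINS2, PCNA, TK1, UHRF1, E2F1, CCNE2, MYBL2 and FAM111B. The share of all genes 2-fold lower in both pairs was not computed. Taken singly, the pairs had 1.81% of all genes 2-fold lower in PC9M and 2.4% in H358. These 2 pairs share no library, and over the 41 genes Pearson's r of their ratios was 0.50 and Spearman's rho 0.48, a description across genes that share one pathway and a labelled dose that differs. Between the GNF5 ratios of PC9 and PC9M, r was 0.25 and rho 0.21 over 38 genes, and between those of PC9 and H358 r was -0.11 and rho -0.09 over 37. Of the 14, 10 had a promoter window, and 8 of these 10 held an E2F string, as did 13 of the 27 others with a window. The q-values of the authors' deposited table, from a test of 1 library against 1, mark 7 of these genes as significant in PC9M, all lower, where 0.117% of all genes they tested were significant and lower. The 7 were MCM4, MCM10, GINS4, FEN1, UHRF1, MYBL2 and FAM111B, the last with a q-value of 0.00467 in the authors' deposited table. In H358 the authors' deposited table marks 10, all lower, beside 0.576% of all genes. They were MCM2 to MCM6, GINS2, PCNA, RRM2, TK1 and MYBL2, and MCM3 had the smallest q-value in the authors' deposited table, 9.17e-05. In PC9 it marks none of these genes with GNF5, where 0.161% of all genes were significant and lower and 0.0979% significant and higher.

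**Figure D3:**
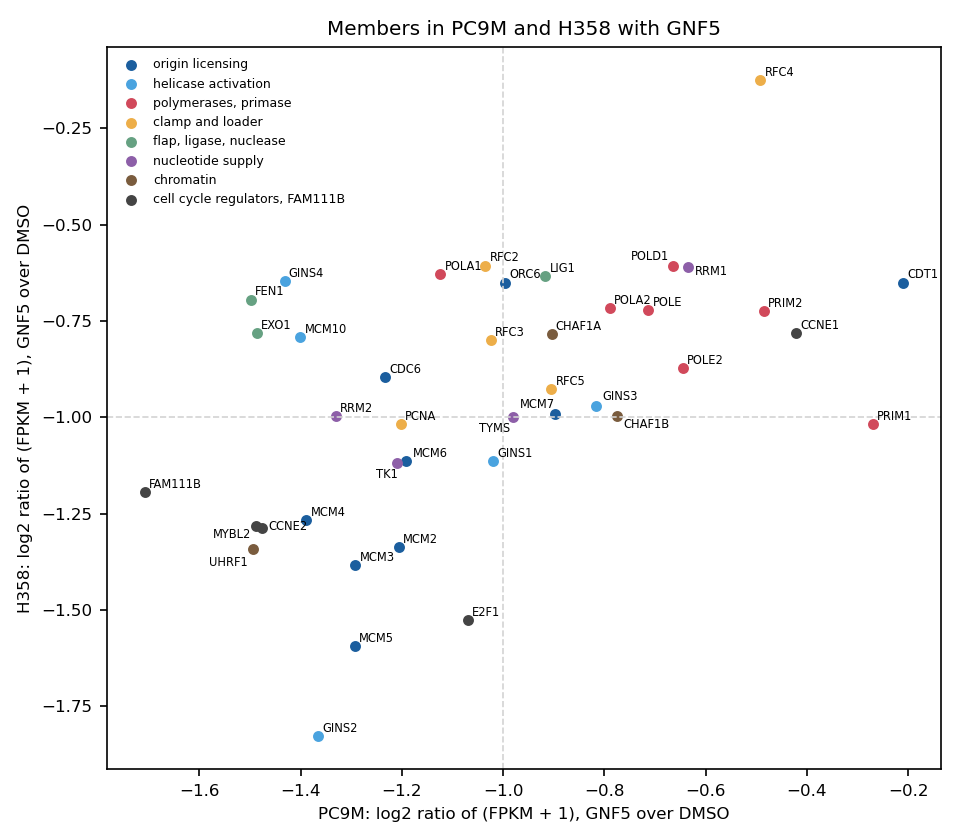
Log2 ratio of FPKM + 1 with GNF5 over DMSO in PC9M (horizontal) and H358 (vertical) for the 41 genes counted in both, coloured by role, with dashed lines at 2-fold lower. The 14 genes in the lower left corner were past 2-fold in both lines, GINS2 lies lowest in H358 and FAM111B furthest left in PC9M, while RFC4 and CDT1 lie at the near end of the scale.

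The ABL1/ABL2 shRNAs left most of these genes within 2-fold of the scrambled shRNA. FEN1 was the exception in PC9, with 26.1 FPKM with the shRNAs and 68.0 FPKM with the scrambled shRNA, a log2 ratio of -1.35. Its q-value in the authors' deposited table was 0.0110, and it was the only one of the 42 genes marked there, where 0.593% of all genes were significant and lower. In PC9M FEN1 had 23.4 FPKM with the shRNAs and 31.7 FPKM with the scrambled shRNA, and its ratio of -0.43 was again the lowest of the 42, without being marked in the authors' deposited table. That table marks none of the 42 genes in PC9M, beside 0.535% of all genes lower and 0.401% higher.

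Genes of the helicase were mixed with the shRNAs in PC9. MCM3 had 100 FPKM with the ABL1/ABL2 shRNAs and 163 FPKM with the scrambled shRNA, a ratio of -0.69, while in PC9M it had 28.7 FPKM with the shRNAs and 29.8 FPKM with the scrambled shRNA, a ratio of -0.05. GINS1 had 8.75 FPKM with the shRNAs and 13.4 FPKM with the scrambled shRNA in PC9 and 25.3 FPKM with the shRNAs and 26.2 FPKM with the scrambled shRNA in PC9M. MCM4 had 52.1 FPKM with the shRNAs and 76.5 FPKM with the scrambled shRNA in PC9 and 55.1 FPKM with the shRNAs and 52.1 FPKM with the scrambled shRNA in PC9M, ratios of -0.54 and 0.08. The other ring subunits lay near 0 in PC9, with ratios of -0.03 for MCM2 and MCM5, 0.04 for MCM6 and 0.08 for MCM7. Over the 9 licensing genes 6 were below 0 in PC9, and their median of -0.03 lay above that of all genes, -0.09. All 5 clamp and loader genes and all 5 helicase activation genes were below 0 in PC9, at medians of -0.37 and -0.20, although GINS2 was at -0.03, and at 0.06 relative to the median of all genes. In PC9M 4 of 5 genes in each of these groups were above 0.

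CCNE2 and TYMS were the highest with the shRNAs in PC9. CCNE2, in the locus of INTS8, had 6.31 FPKM with the shRNAs and 2.97 FPKM with the scrambled shRNA, a ratio of 0.88, and in PC9M it had 22.9 FPKM with the shRNAs and 21.2 FPKM with the scrambled shRNA, a ratio of 0.11. TYMS had 12.8 FPKM with the shRNAs and 7.97 FPKM with the scrambled shRNA in PC9 and 46.8 FPKM with the shRNAs and 34.5 FPKM with the scrambled shRNA in PC9M, ratios of 0.62 and 0.43, and 0.43 was the highest of the 42 genes in PC9M. MYBL2 had 82.5 FPKM with the shRNAs and 65.7 FPKM with the scrambled shRNA in PC9 and 151 FPKM with the shRNAs and 118 FPKM with the scrambled shRNA in PC9M, ratios of 0.32 and 0.36. LIG1 had ratios of 0.27 and 0.24, and POLD1 of 0.21 and 0.30. Over the 42 genes, Pearson's r between the shRNA ratios of PC9 and PC9M was 0.69 and Spearman's rho 0.63, again across genes and with FEN1 and TYMS at the ends of the scale in PC9M. MCM3, FEN1, GINS1, CHAF1A and POLA2 were the 5 genes below 0 in all 5 comparisons, although CHAF1A was at 0.00 in PC9M with the shRNAs. Relative to the median of all genes, CHAF1A was at 0.01 there, and POLA2 at -0.02 in PC9 with the shRNAs. Single comparisons had between 51.9% and 74.5% of all genes lower. The share of all genes lower in all 5 was not computed, so the count of 5 cannot be set against it.

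To ask whether a ratio was shared by lines, the 5 ratios were fitted together in limma, with the lines standing in for replicates. The fit took the lines as independent, and also the GNF5 and shRNA ratios of a line, although PC9 and PC9M are likely related. Its SE and p may therefore be too small. With Benjamini-Hochberg adjustment over 13885 genes, limma called none of the 42 genes, and 0% of all genes, for GNF5, for the shRNAs or for the difference between them. At an unadjusted p under 0.05, limma had 23 of the 42 for GNF5, all lower, where 14.2% of all genes were lower at that level. For the shRNAs limma had 0 of the 42 at that level, with 2.77% of all genes lower, and for GNF5 minus shRNA 9 of the 42, all lower, with 5.54% of all genes lower. The smallest adjusted p of these genes in limma was 0.228. It was reached by POLA1, with a mean GNF5 log2 ratio of -0.89 (SE 0.14, n = 3 lines), CHAF1A, at -0.76 (SE 0.13), GINS3, at -0.77 (SE 0.14), UHRF1, at -1.11 (SE 0.22) and GINS4, at -1.02 (SE 0.21), and by 5 further genes. Each of these 5 named genes was lower with GNF5 in 3 of 3 lines, and their adjusted p in limma ranged from 0.155 to 0.449 over the alternatives.

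MCM2 and E2F1, both past 2-fold in PC9M and H358, had limma means of -0.62 (SE 0.39) and -0.59 (SE 0.42), with adjusted p of 0.427 and 0.470, and their PC9 ratios lay on the other side of 0. Without the PC9 GNF5 ratio, limma had 40 of the 42 genes at an unadjusted p under 0.05 for GNF5, and without that of PC9M or of H358 it had 10 and 9. No gene passed the adjusted threshold in any of these 3 fits. The count across lines thus rested on which GNF5 pair was in the fit.

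The other replication genes looked at, 36 in the tables, had smaller differences of the same direction. With GNF5, 34 of 36 were lower in PC9M and 34 of 36 in H358, where 57.7% and 74.5% of all genes were. Past 2-fold lower were 4 and 3, against 1.81% and 2.4% of all genes, and the medians were -0.54 and -0.47. Relative to the median of all genes, 27 of the 36 were lower in H358. In PC9 18 of 34 counted were lower, where 57% of all genes were. CDC45, which joins the helicase with GINS, had 5.38 FPKM with GNF5 and 12.6 FPKM with DMSO in PC9M and 1.57 FPKM with GNF5 and 4.72 FPKM with DMSO in H358. GMNN, the inhibitor of CDT1, had 14 FPKM with GNF5 and 32.1 FPKM with DMSO in PC9M and 9.58 FPKM with GNF5 and 20.6 FPKM with DMSO in H358, whereas in PC9 it had 18 FPKM with GNF5 and 19.7 FPKM with DMSO. Of 30 other S phase genes, 29 of 30 counted in PC9M and 28 of 29 in H358 were lower, at medians of -0.77 and -0.60. The same shares of all genes, 57.7% and 74.5%, stand beside these counts. Relative to the median of all genes, 26 of the 29 were lower in H358. ASF1B, a histone chaperone, had the lowest ratio of these in PC9M, -1.36, at 14.4 FPKM with GNF5 and 38.5 FPKM with DMSO.

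Mitosis genes were lower beside them. All 34 were below 0 with GNF5 in PC9M, 6 past 2-fold, and in H358, none past 2-fold, with medians of -0.76 and -0.51. Of all genes 57.7% were lower in PC9M and 74.5% in H358, and 1.81% and 2.4% were 2-fold lower. Relative to the median of all genes, all 34 were still lower in both lines. In PC9 20 of 33 counted mitosis genes were higher with GNF5, where 43% of all genes were, at a median of 0.21. With the shRNAs 33 of 34 were lower in PC9, at a median of -0.37, where 62.3% of all genes were lower. In PC9M 33 of 34 were higher with the shRNAs, at 0.22, where 48.1% of all genes were higher. MKI67, a marker of cycling cells, had 11.8 FPKM with GNF5 and 23.7 FPKM with DMSO in PC9M, 2.08 FPKM with GNF5 and 3.49 FPKM with DMSO in H358, and 1.80 FPKM with GNF5 and 1.18 FPKM with DMSO in PC9. With the shRNAs it had 8.89 FPKM, against 10.5 FPKM with the scrambled shRNA, in PC9 and 34.7 FPKM with the shRNAs and 22.2 FPKM with the scrambled shRNA in PC9M.

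**Figure D4:**
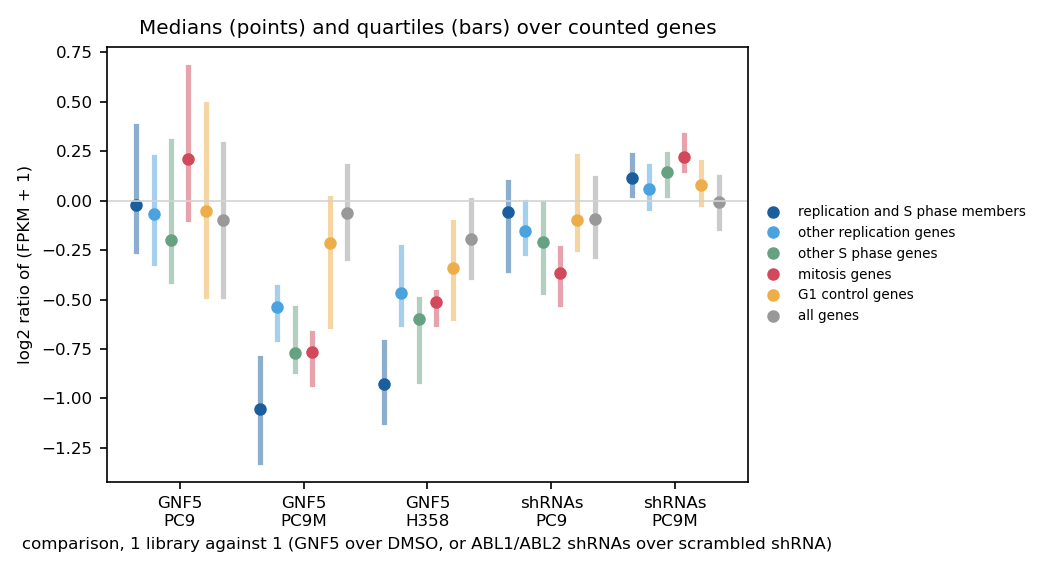
Median log2 ratio of FPKM + 1 (points) and quartiles (bars) of the 42 genes, of other gene lists and of all counted genes in the 5 comparisons. With GNF5 the 42 genes have the lowest median of the lists in PC9M, at -1.05, and in H358, at -0.93, and the mitosis genes lie apart from all genes in opposite directions with the shRNAs in PC9, at -0.37, and PC9M, at 0.22.

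Genes that govern G1 were split with GNF5 in PC9, where 10 of 20 counted were lower, beside 57% of all genes. In PC9M 16 of 23 were lower and in H358 20 of 23, where 57.7% and 74.5% of all genes were. Their medians were -0.21 in PC9M and -0.34 in H358. CCND3, at -1.13, and E2F8, at -1.06, were past 2-fold lower in PC9M. CDKN1A, the p21 inhibitor of cyclin E kinase, had 2.23 FPKM with GNF5 and 14.2 FPKM with DMSO in PC9, a log2 ratio of -2.23. In PC9M it had 21.0 FPKM with GNF5 and 16.8 FPKM with DMSO, a ratio of 0.30, and in H358 44.8 FPKM with GNF5 and 76.0 FPKM with DMSO, a ratio of -0.75. CDKN2B, an inhibitor of the cyclin D kinases, had 5.04 FPKM with GNF5 and 28.6 FPKM with DMSO in PC9, a ratio of -2.29, and ratios of 0.67 in PC9M and -0.15 in H358. CDKN1B, the p27 inhibitor, was at 0.49, 0.21 and -0.07 in PC9, PC9M and H358. Of the 6 CDK inhibitors counted in PC9 with GNF5, 3 were lower and 3 higher. Among the higher were CDKN1C at 0.77 and CDKN2D at 0.56, both low in that pair, at 1.36 FPKM and 1.27 FPKM with GNF5. In PC9M 3 of 7 CDK inhibitors were lower with GNF5, and in H358 5 of 7.

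The control libraries of PC9 did not match each other. Across separately scaled tables and centred on the median of all genes, the scrambled shRNA library of PC9 over its DMSO library had a median log2 ratio of 2.16 for the 42 genes. All 42 were higher with the scrambled shRNA, and 41 were at least 2-fold higher, against 7.28% of all genes. RRM2 had 37.7 FPKM with the scrambled shRNA and 1.22 FPKM with DMSO, CCNE2 2.97 FPKM with the scrambled shRNA and 0.122 FPKM with DMSO, and PCNA 241 FPKM with the scrambled shRNA and 35.5 FPKM with DMSO. Mitosis genes had a median of 1.74 in the same comparison. In PC9M the same ratio had a median of 0.20, with 37 of 42 genes higher and 0 past 2-fold, where 1.62% of all genes were 2-fold higher.

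The DMSO library of PC9 thus held less of these transcripts than the scrambled shRNA library of PC9. Its GNF5 partner was like it, with 38 of 42 genes at 1 FPKM or more in the GNF5 library and 36 of 42 in the DMSO library. Other genes set the same libraries apart. KRT8, an epithelial keratin, was at 5138 FPKM with the scrambled shRNA and 1881 FPKM with DMSO in PC9, and the 6 epithelial markers summed to 12983 FPKM with the scrambled shRNA and 6450.2 FPKM with DMSO. CLDN4, another of the 6, was lower with the scrambled shRNA, at 379 FPKM against 523 FPKM with DMSO. SFTPB was at 0.197 FPKM with the scrambled shRNA and 15.2 FPKM with DMSO. PECAM1 was at 5.33 FPKM with the scrambled shRNA and 23.2 FPKM with DMSO, and CD14 at 0.297 FPKM with the scrambled shRNA and 2.66 FPKM with DMSO. CDH5, also an endothelial marker, differed little, at 8.98 FPKM with the scrambled shRNA and 8.32 FPKM with DMSO. Within the GNF5 pair of PC9, CDH1, the epithelial cadherin, was at 21.7 FPKM with GNF5 and 67.0 FPKM with DMSO. Of the 6 epithelial markers, 2 were lower and 4 higher with GNF5 in that pair. The part of these differences and of the low starting level in the GNF5 ratios of PC9 was not tested, and the culture, the transduction and the table cannot be told apart.

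**Figure D5:**
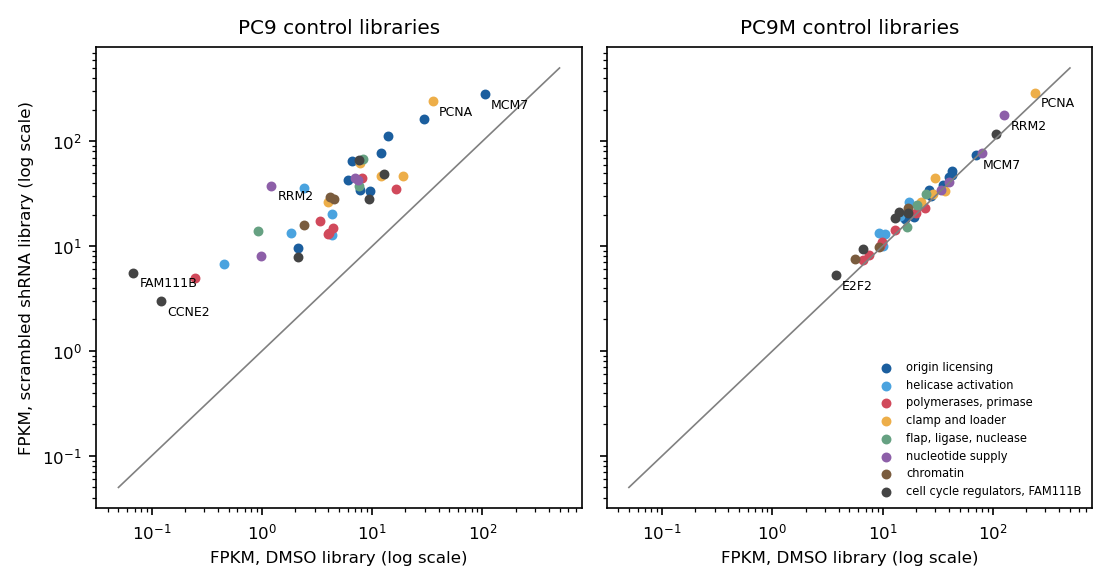
FPKM of the 42 genes in the scrambled shRNA library (vertical, log scale) against the DMSO library (horizontal, log scale) of PC9 (left) and PC9M (right), with the line of equal values. In PC9 all 42 genes lie above the line, RRM2 at 37.7 FPKM with the scrambled shRNA against 1.22 FPKM with DMSO, while in PC9M the genes lie along it.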

How the data were processed

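The 42 genes and the lists beside them were chosen with earlier results of these data known. Per the labels and the submitters' processing notes, total RNA was sequenced and the authors used TopHat and Cuffdiff on hg18, with versions, annotation and strand setting not given in the sources used here. The authors' tables list FPKM of both libraries of a pair, taken here to be scaled within that table. Deposited p-values and q-values come from the authors' Cuffdiff run on single libraries, and its deposited log2 fold change was used for no value. The name of the GNF5 sample differs in the H358 table from the other tables, and whether a further condition shared that run is not known.

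Tables were joined by symbol. Left out were 28 rows per table with a date for a symbol, and EEF1A1, for lack of an estimate in PC9 with GNF5. No libraries were identical. Ratios used a pseudocount of 1 and a minimum of 1 FPKM, with no test within a pair. Low FPKM values fall in steps, whose commonest ratio put the depth of the GNF5 over the DMSO library at 1.04 in PC9M and 1.20 in H358, and it was not clear in the other 3 pairs. No counting interval can be given.

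A fit in limma 3.58.1 (R 4.3.3) took all 5 ratios on perturbation with a trended prior, for 13885 genes with 1 FPKM in 2 or more libraries, and p-values were adjusted by Benjamini-Hochberg at 0.05. They rest on the spread between single libraries of 3 lines. It was estimated from all 5 ratios together, so the shRNA ratios also enter the SE and p of GNF5 in limma. Whether cultures were independent is not stated. The fit was also run on simulated data with independent noise and equal shifts in all 5 ratios. These data are not of that form, so that run does not check the calls made here. Python 3.11.15 with pandas 2.3.3, numpy 2.4.6 and matplotlib 3.10.9 did the rest. Alternatives were other pseudocounts, other minimum levels, centred ratios, an untrended prior, a replicate block by line and leaving out each comparison. Every one of the 42 genes could be named. Of the other lists, ABL1, ABL2, CDKN1A, CDKN1B, GMNN, MKI67, the markers and up to 4 genes per comparison with the largest ratios were named. CDKN1C and CDKN2D were named after their values were seen.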

Additional observations from a re-analysis of the deposited data

Results flagged for a closer look

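Several genes were at least 1.5-fold higher with GNF5 in PC9 and at least 1.5-fold lower with GNF5 in another line. These differences come from single libraries and were not tested. For MCM2 the log2 ratio in PC9 was 1.9 above that in PC9M and 2.03 above that in H358. LIG1 was 1.63 above PC9M and 1.35 above H358. E2F1 was 1.89 above PC9M and 2.34 above H358. For E2F2 the gap to PC9M was 2.05, for CDT1 the gap to H358 was 1.81, and for CCNE1 the gap to H358 was 1.42. All of them have their PC9 value from the pair of libraries whose 42 genes had a median of 5.29 FPKM with and without GNF5.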

How the results depend on the processing

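Of 184 values recomputed under the alternatives, 168 stayed within 0.1 for a median, 1.5 times for a count or the same side of 0 and of the threshold for a single gene, and 16 moved further. The 168 include the limma counts of the 42 genes called, which were 0 in every fit. They also include the limma means of POLA1, CHAF1A, GINS3, UHRF1 and GINS4, which passed adjustment in no fit. None of the 16 moves was among these limma values, so 168 of 184 overstates how stable the other values were. Of 25 recomputed medians of the 42 genes, 4 changed sign, all from values near 0. The GNF5 median of PC9, -0.02, became 0.18 with a minimum of 5 FPKM, 0.04 with no minimum and 0.07 when centred on all genes, and the shRNA median of PC9, -0.06, became 0.04 when centred. Adding 0.1 in place of 1 to FPKM gave 2 genes at least 2-fold lower and 2 higher with GNF5 in PC9, 27 lower in H358 at a median of -1.05, and 1 higher with the shRNAs in PC9. Adding 5 gave 0 genes 2-fold higher in PC9 with GNF5, 15 lower at a median of -0.84 in PC9M, and 5 lower at a median of -0.54 in H358. A minimum of 5 FPKM left 9 of 22 counted genes below 0 in PC9 with GNF5, against 19 of 38 with a minimum of 1. Centring on all genes gave 2 genes 2-fold higher in PC9 and a median of -0.73 in H358 with GNF5. For the scrambled shRNA over DMSO in PC9, the median was 2.32 without centring and 2.44 with 0.1 added. Each move follows from the alternative's own construction, since no other choice was changed.

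In limma, 0 of the 42 genes passed adjustment in any alternative, and an untrended prior called 1 gene of all tested for GNF5. Leaving out each comparison in turn, genes at an unadjusted p under 0.05 in limma numbered 9 to 40 with GNF5, 0 to 3 with the shRNAs and 2 to 37 in the difference. With the cell line as a replicate block, limma had 15, 0 and 2 genes at that level, and 0 passed adjustment in each. Against protein-coding genes alone, a background chosen after seeing the data, 1.07% were 2-fold lower with GNF5 in PC9M, 1.5% in H358 and 6.31% in PC9. Depth sets no bound here, since the tables hold no counts.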
